A study of Mus musculus with 11 samples.

Results

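The regions described here are places in the mouse genome where open chromatin was detected in a single library of serotonergic (5-HT) neurons and in no library of dopaminergic (DA) neurons. They were selected on the deposited score of each region, as those with a score above 0 in exactly 1 of the 2 5-HT libraries and a score of 0 in all 3 DA libraries. This holds for 6208 of the 131942 regions scored in every library, or 4.71% of them. Of the 6208 regions, 4577 had their peak in 5-HT replicate 1 and 1631 in 5-HT replicate 2. This order depends on the number of peaks, since with the same number of highest-scoring peaks in each library the counts were 3436 and 5321. Peaks below that cut counted as absent, so regions counted after it can have a lower-scoring peak in another library.

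The study compared open chromatin by ATAC-seq, in which a transposase inserts adapters into accessible DNA, between DA and 5-HT neurons of E14.5 mouse embryos. DA neurons were GFP+ cells of the ventral mesencephalon of TH-GFP embryos, a line kept on a C57BL/6J background in which the rat Th promoter drives GFP, and 5-HT neurons were YFP+ cells of hindbrain rhombomeres 1 to 3 of embryos in which a Cre driver line was crossed to ROSA YFP. Males of both lines were mated with Swiss females, several embryos were pooled for each sort, and each library came from its own sort. The 5-HT libraries were made from fewer cells than the DA libraries. The Cre driver is also active in progenitors of other hindbrain neurons, and their share in the sorts was not examined here. In the paper, most YFP+ cells stained for Tph2, the enzyme of serotonin synthesis in neurons. It also reports expression of genes of DA and GABAergic neurons in the sorted 5-HT cells. Cell type, mouse line, brain region and number of cells differ together between the groups and cannot be told apart.

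Serotonergic neurons of the rostral hindbrain arise from ventral progenitors that express Nkx2-2 and Foxa2, and take on their identity under a set of factors that includes Gata2, Gata3, Lmx1b, Insm1 and Fev. Fev, an ETS factor also known as Pet1, activates the genes for serotonin synthesis, storage and reuptake. Hox and Meis factors give the hindbrain its position along the body axis, and enhancers of genes active in a cell type are often found as open regions in introns and between genes.

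The labels of the libraries were first compared with the promoters of marker genes. A peak overlapped the promoter of 13 of 18 serotonergic genes in 5-HT replicate 1 and of 11 in 5-HT replicate 2, against 15, 16 and 15 in DA replicates 1, 2 and 3. For 17 dopaminergic genes, the numbers were 13 and 9 in the 5-HT libraries and 16 in each DA library. Presence of a promoter peak in the serotonergic list therefore did not set the 5-HT libraries above the DA libraries. At Th, Lmx1a and Aldh1a1, genes of DA neurons and their progenitors, each DA library had a promoter peak and the 5-HT libraries had none. The promoter of Fev had a peak in 5-HT replicate 1 alone. Tph2, which encodes the enzyme of serotonin synthesis in neurons, had a promoter peak in all 5 libraries, and the serotonin transporter gene Slc6a4 had one in the DA libraries only.

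The 4577 regions of 5-HT replicate 1 make up 11.8% of its 38772 peaks (95% Wilson interval 11.5 to 12.1%), and the 1631 regions of 5-HT replicate 2 make up 7.13% of its 22879 peaks (6.80 to 7.47%). These intervals, like all those that follow, cover counting error only, and the read depth behind the peaks is unknown. The DA libraries, measured in the same way, held 2726, 22947 and 26790 regions of their own in replicates 1, 2 and 3, which are 5.16%, 24.7% and 28.4% of their peaks. Another 513 regions were shared by the 5-HT libraries and absent from the DA libraries. The libraries with more peaks also held more regions of their own within each cell type.

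Scores lay close to the lowest value of each library. In 5-HT replicate 1, the median score of the selected regions was 3.60, against 4.48 over all its peaks, and in 5-HT replicate 2 it was 3.12 against 3.69. Just inside the rule, 1446 of the 4577 regions of 5-HT replicate 1 carried the same score of 3.37, the lowest of that library, and the lowest score of a region of 5-HT replicate 2 was 2.83. The highest scores were 7.82 and 6.92, which exceed 91.6% and 93.8% of the peaks of the respective library. Among the 25% of peaks with the lowest scores, 29.0% in 5-HT replicate 1 and 17.1% in 5-HT replicate 2 were found in that library alone. Among the 25% with the highest scores, 0.382% and 0.157% were.

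Just outside the rule, 2395 regions had a peak in 5-HT replicate 1 and in 1 DA library only, and 488 in 5-HT replicate 2 and in 1 DA library only. For 5-HT replicate 1, that DA library was replicate 1 in 73 cases, replicate 2 in 1589 and replicate 3 in 733. For 5-HT replicate 2, the numbers were 16, 327 and 145. The median score of these regions in the 5-HT library was 3.71 and 3.13, close to that of the selected regions.

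The selected regions were narrow. Their median width was 209 bp in 5-HT replicate 1 and 155 bp in 5-HT replicate 2, against 708 and 890 bp over all peaks of these libraries. Regions of single DA libraries were as narrow, with medians of 189, 204 and 215 bp. In contrast to shared peaks, selected regions with a higher score were not wider. Across the selected regions, score and width had a Spearman's rho of -0.0768 in 5-HT replicate 1 (n = 4577) and -0.159 in 5-HT replicate 2 (n = 1631). Across the peaks of the same libraries that another library shared, rho was 0.230 and 0.225. For regions of single DA libraries it was -0.159, -0.175 and -0.0135, so these traits are not particular to the 5-HT libraries. These values describe regions of single libraries, which are not replicates. The 100 regions with the highest scores had median widths of 171 and 124 bp in the 5-HT libraries. In DA replicates 1, 2 and 3 these widths were 123, 120.5 and 120 bp.

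Most of the regions lay away from promoters. Of the 4577 regions of 5-HT replicate 1, 161 were centred in a promoter (-1 kb to 100 bp around a TSS), 172 in an exon, 2063 in an intron (45.1%) and 2181 in intergenic loci (47.7%). Of the 1631 regions of 5-HT replicate 2, 53 lay in promoters, 72 in exons, 665 in introns (40.8%) and 841 in intergenic loci (51.6%). Of all deposited regions, 9.62% lay in promoters, 5.18% in exons, 39.1% in introns and 46.1% in intergenic loci. The 95% Wilson interval of the intergenic share was 46.2 to 49.1% in 5-HT replicate 1 and 49.1 to 54.0% in 5-HT replicate 2. Both intervals lay above the share of all regions, that of replicate 1 only just. For regions of DA replicates 1, 2 and 3 alone the share was 52.9%, 45.0% and 60.8%. Both 5-HT libraries thus lay within the range of the DA libraries. Over all peaks of 5-HT replicates 1 and 2, 34.1% and 27.9% lay in intergenic loci. The share of promoters was 3.52% (95% Wilson interval 3.02 to 4.09%) and 3.25% (2.49 to 4.23%), against 24.5% and 33.9% over all peaks of the same libraries. Among the 25% of peaks with the lowest scores, those that another library shared lay in promoters in 11.5% and 21.3% of cases in 5-HT replicates 1 and 2, and in 7.45%, 4.18% and 4.43% in DA replicates 1, 2 and 3. The median score was similar in each class, from 3.57 in exons to 3.62 in promoters for 5-HT replicate 1, and from 3.06 in promoters to 3.13 in introns for 5-HT replicate 2. Coding TSSs lay at a median of 48.0 kb and 37.5 kb, and for 49.1% and 44.5% of the regions none was closer than 50 kb. Over all deposited regions the median was 32.1 kb, and 40.9% had none closer than 50 kb. For regions of DA replicates 1, 2 and 3 alone, the medians were 47.9, 32.6 and 69.9 kb. Their shares without a coding TSS within 50 kb ran from 40.3% to 57.7%, so both 5-HT libraries lay within the range of the DA libraries.

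To see whether the few promoters are a property of 5-HT neurons, the share was set beside that of regions found in a single DA library. It was 2.64%, 3.89% and 2.03% for DA replicates 1, 2 and 3. The mean was 3.38% ± 0.190 (SD, n = 2) for the 5-HT libraries and 2.85% ± 0.950 (SD, n = 3) for the DA libraries, and the groups overlapped (two-sided exact permutation test, p = 0.5, Benjamini-Hochberg adjusted p = 0.75 over 3 tests). With 3 libraries against 2, the smallest p this test can give is 0.1. The difference turned from 0.530 to -0.108 percentage points without DA replicate 3. With the same number of highest-scoring peaks in each library it was 3.99, and both 5-HT libraries lay above the DA libraries, with 9.90% and 9.79% against 5.42%, 7.70% and 4.44% (two-sided exact permutation test, p = 0.2, not adjusted).

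GC content of the central 200 bp did not separate the cell types either when all peaks counted. It was 47.4% and 48.8% for the regions of 5-HT replicates 1 and 2, and 49.1%, 48.6% and 46.9% for those of DA replicates 1, 2 and 3. The means were 48.1% ± 0.948 (SD, n = 2) and 48.2% ± 1.14 (SD, n = 3) (two-sided exact permutation test, p = 1, adjusted p = 1). With the same number of highest-scoring peaks in each library, the difference turned from -0.0826 to 3.60 percentage points and the groups separated, with 51.2% and 52.2% in the 5-HT libraries against 48.7%, 49.5% and 46.1% (two-sided exact permutation test, p = 0.1, not adjusted).

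The autosomes held similar shares of selected regions, from 4.09% of the deposited regions of chromosome 7 to 5.25% of those of chromosome 2. Chromosome X held 132 of the regions, or 3.62% of its deposited regions, and chromosome Y held 0 of 29. The 5-HT libraries differed on chromosome X, which carried 1.66% of the regions of replicate 1 and 3.43% of those of replicate 2. The DA libraries differed as well, with 1.94%, 1.65% and 4.72% of the regions of single libraries on chromosome X. Over all deposited regions the share was 2.77%.

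Most regions of either 5-HT library had no region of the other nearby. Of the regions of 5-HT replicate 2, 31 of 1631 (1.90%, 95% Wilson interval 1.34 to 2.69%) lay within 1 kb of a region of 5-HT replicate 1, and 195 (12.0%) within 20 kb. In the other direction, 31 of 4577 (0.677%) lay within 1 kb and 220 (4.81%) within 20 kb. For regions of single DA libraries, a region of 5-HT replicate 1 lay within 1 kb of 0.990%, 1.20% and 0.788% and within 20 kb of 8.73%, 10.4% and 8.08%. The median gap to a region of 5-HT replicate 1 was 166 kb for 5-HT replicate 2 and 195, 166 and 213 kb for the DA libraries, and the difference between the libraries was not tested. Peaks of the DA libraries are far more numerous and cannot be compared with these sets by distance. A peak of any DA library lay within 1 kb of 23.3% of the regions of 5-HT replicate 1 and 18.1% of those of replicate 2, and within 20 kb of 87.1% and 85.0%. For regions of single DA libraries, a DA peak outside their own set lay within 1 kb of 26.5%, 16.6% and 13.6%.

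The highest-scoring region of 5-HT replicate 1 was chr11:81991424-81991547, in an intron of the chemokine gene Ccl1, with a score of 7.82. It was followed by chr1:70930864-70930980 in an exon of Vwc2l (7.68), an intergenic region at chr2:137946755-137946969 whose nearest TSS is that of Btbd3 at 135 kb (7.63), an intergenic region at chr12:32795890-32796058 49.8 kb from Prkar2b, which encodes a regulatory subunit of protein kinase A (7.58), and chr8:86697907-86698008 in an intron of Nanos3, a gene of the germ line (7.36). In 5-HT replicate 2, the highest score was found at chr12:37968449-37968614, in the promoter of Agmo, which encodes an ether lipid-cleaving enzyme (6.92). Next came chr1:137749072-137749215, 11.7 kb from the troponin gene Tnnt2 (6.54), chr9:61737782-61737955, 24.5 kb from the ribosomal protein gene Rplp1 (5.52), chr3:68990736-68990842, 59.8 kb from Kpna4 (5.40), and chr12:89973665-89973767 in an intron of the synaptic adhesion gene Nrxn3 (5.09). None of these 10 regions lay at a gene of the serotonergic or hindbrain lists, and their widths ran from 102 to 215 bp.

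Promoters of protein-coding genes held 125 regions of 5-HT replicate 1 and 40 of 5-HT replicate 2. Among the highest scores in 5-HT replicate 1 were those at Slc6a5 (5.08) and at Adamtsl2 (4.94). Slc6a5 encodes the glycine transporter of inhibitory neurons of the hindbrain and spinal cord, and its region chr7:57165332-57165540 spans the TSS at 57165516 on the plus strand. In 5-HT replicate 2, Agmo was followed by Atp8b3, which encodes a phospholipid transporter (4.42), and by the histocompatibility gene H2-T24 (3.97).

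Fev (ENSMUSG00000055197.4, chr1:74928083-74931993 on the minus strand of mm9) had 2 of the selected regions at its 5′ end, both from 5-HT replicate 1. The first, chr1:74931114-74931342, lies within the gene and is centred 46 bp upstream of the annotated TSS at 74931182, with a score of 3.37, the lowest of the library. The other, chr1:74932372-74932507, is centred 446 bp upstream of the outermost TSS at 74931993 and scored 3.88. Both scored 0 in 5-HT replicate 2 and in DA replicates 1, 2 and 3, as the rule requires. Of the 26 deposited regions within 100 kb of Fev, these are the only selected ones. Regions with a peak in a single DA library were found there as well, with 8 in DA replicate 2 alone. A region over the exons of Fev, chr1:74928563-74929416, fell just outside the rule, with 3.55 in 5-HT replicate 1 and 3.55 in DA replicate 2. A region beyond the 3′ end of the gene, chr1:74927438-74927794, had the reverse pattern, with 7.93, 7.71 and 6.43 in DA replicates 1, 2 and 3 and 0 in both 5-HT libraries. At the neighbouring promoter of Cdk5r2, all 5 libraries had a peak, with 5.94 and 4.25 in the 5-HT libraries.

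Among the other factors of serotonergic identity, Gata3 had the most regions, with 6 in its body or within 20 kb. Of these, 5 came from 5-HT replicate 1 and 1 from 5-HT replicate 2, which lies at chr2:9806477-9806770 and scored 3.17. The highest of them, 4.21 in 5-HT replicate 1, was found 3.99 kb upstream of the TSS at chr2:9815601-9815702, next to chr2:9814863-9815196 (3.88), and the other 3 lay in introns with scores from 3.57 to 3.66. Lmx1b had 1 region, in an intron at chr2:33436962-33437343, with 3.05 in 5-HT replicate 2. Insm1, which encodes a zinc finger factor of differentiating monoaminergic neurons, had 2 intergenic regions of 5-HT replicate 1, at chr2:146045106-146045280 (3.53) and chr2:146053489-146053675 (3.66). The progenitor factor Nkx2-2 had 2 in introns, at chr2:147015590-147015782 (3.53) and chr2:147017277-147017517 (3.52). Regions of DA replicate 2 alone lay within 20 kb of these genes too, 2 at Gata3, 11 at Lmx1b, 2 at Insm1 and 1 at Nkx2-2. DA replicate 1 alone had 2 at Lmx1b, and DA replicate 3 alone had 1 at Gata3.

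Ddc, which encodes the decarboxylase shared by serotonin and dopamine synthesis, had 2 regions of 5-HT replicate 1, in an intron at chr11:11728329-11728487 (3.60) and at an internal promoter at chr11:11780867-11781068 (3.37). Maob, which encodes a monoamine oxidase, had 1 in an intron at chrX:16343377-16343510 (4.20), and the monoamine transporter gene Slc22a3 had 1 in an intron at chr17:12644184-12644284 (4.69). For these regions the other 5-HT library and the DA libraries were at 0 by the rule. No selected region was found within 20 kb of Tph2, Slc6a4, Gata2, Slc18a2, Maoa, Htr1a, Htr1b, Foxa2 or Gch1.

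Of all 22380 protein-coding genes, 38.2% had a selected region in the body or within 100 kb, and 15.9% within 20 kb. For regions of 5-HT replicate 1 alone the background at 100 kb was 28.8% of genes, and for those of 5-HT replicate 2 it was 15.4%. Of the 18 serotonergic genes, 10 had a region of 5-HT replicate 1 within 100 kb (21 regions) and 4 had one of 5-HT replicate 2 (4 regions). Of the 30 hindbrain genes, 17 had a region of 5-HT replicate 1 (31 regions) and 2 had one of 5-HT replicate 2 (3 regions). Of the 17 dopaminergic genes, 4 had a region of 5-HT replicate 1 and 6 of 5-HT replicate 2. Counted against the deposited regions at the same loci, the selected regions were 6.91% of 362 at serotonergic genes, 8.56% of 397 at hindbrain genes and 2.42% of 414 at dopaminergic genes, with 12.2% of 296 at progenitor and glial genes, beside 4.71% of all deposited regions. For 5-HT replicate 1 alone these shares were 5.80%, 7.81%, 0.966% and 9.12%, with 4577 of all 131942 regions. For 5-HT replicate 2 they were 1.10%, 0.756%, 1.45% and 3.04%, with 1631 of all regions. In 5-HT replicate 1, the Wilson intervals at serotonergic (3.83 to 8.71%) and hindbrain genes (5.56 to 10.9%) lay above that at dopaminergic genes (0.376 to 2.46%). In 5-HT replicate 2, the shares at these lists rest on only 4, 3 and 6 regions. Their intervals overlapped (0.431 to 2.81%, 0.257 to 2.20% and 0.666 to 3.13%), so the order of the lists in this library cannot be told.

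Among the highest scores at hindbrain genes were those at Meis2, a homeobox gene, in an intron at chr2:115871503-115871840 (5.10), within 100 kb of Dbh at the promoter of Adamtsl2 (4.94), and in an exon of the LIM homeobox gene Lhx5 at chr5:120881799-120882222 (4.86). All of these came from 5-HT replicate 1. Meis1 and Meis2 had 7 selected regions each, 3 of these 14 from 5-HT replicate 2, which had no other region at a hindbrain gene. The 5 regions within 100 kb of Hoxa2 and Hoxa3 are the same for these neighbouring genes and came from 5-HT replicate 1, with scores from 3.37 to 3.57.

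The share of single-library regions near a serotonergic or hindbrain gene was 1.14% in 5-HT replicate 1 (95% Wilson interval 0.867 to 1.49%) and 0.429% in 5-HT replicate 2 (0.208 to 0.883%). In the DA libraries it was 0.440%, 0.771% and 0.250%. Of all deposited regions, 0.575% lay near such a gene. 5-HT replicate 1 thus stood above the 3 DA libraries, and 5-HT replicate 2 lay among them when all peaks counted. The means were 0.783% ± 0.500 (SD, n = 2) and 0.487% ± 0.264 (SD, n = 3), and the groups did not separate (two-sided exact permutation test, p = 0.5, adjusted p = 0.75). Without 5-HT replicate 1, the difference was -0.0831 percentage points in place of 0.295. With the same number of highest-scoring peaks in each library, both 5-HT libraries lay above the DA libraries, with 1.14% and 0.677% against 0.436%, 0.575% and 0.322% (two-sided exact permutation test, p = 0.1, not adjusted).

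Genes of other cell types were counted in the same way. Within 100 kb, 28.8% of all protein-coding genes had a region of 5-HT replicate 1 and 15.4% one of 5-HT replicate 2. All 13 progenitor and glial genes had a selected region at this distance. Of them, 12 had a region of 5-HT replicate 1 (27 regions) and 7 a region of 5-HT replicate 2 (9 regions). These regions are 0.590% and 0.552% of those of the 2 libraries, against 0, 0.214% and 0.0747% for regions of single DA libraries. Of all deposited regions, 0.224% lay near these genes. Olig1 and Olig2 are neighbours and count the same 3 selected regions. Within 20 kb, 9 of the 13 genes had a selected region, beside 15.9% of all protein-coding genes. The highest scores were found near Hes5, a Notch target (4.18), near Olig1 and Olig2, factors of oligodendrocyte and motor neuron progenitors (4.09), in an intron of Pdgfra (4.05) and near Sox2 (4.04). Of 7 GABAergic genes, 3 had a region of 5-HT replicate 1 and 1 of 5-HT replicate 2, the highest in an exon of Sox14 (4.74). Of 5 glutamatergic genes, 1 had a region, near Pou4f1 (3.37). For 8 vascular genes the numbers were 2 and 0, and for 9 genes of microglia and blood 3 and 3. The part of cells other than 5-HT neurons in the selected regions was not tested.

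By nearest TSS, the 6208 regions fell to 3819 protein-coding genes, of which 2537 had 1 region. The transcription factor gene Sox5 and the ephrin gene Efna5 had the most, 11 each, followed by Lphn3, an adhesion receptor gene, Nr2f1, an orphan nuclear receptor gene, and Zeb2, a zinc finger homeobox gene, with 10. Cited2, Igfbp7, Lrrc4c and Robo2 had 9. A further 11 genes had 8, namely Csmd3, Epha7, Gata3, Meis2, Nfib, Pcdh9, Phactr1, Sorcs3, Sox2, Vstm2b and Zfp608. These genes lie among many deposited regions, and the selected ones made up 16.4% of 67 at Sox5, 12.4% of 89 at Efna5, 10.3% of 97 at Nr2f1 and 8.70% of 92 at Gata3. Among the genes named, the share ran from 7.48% of 107 at Vstm2b to 25.0% of 32 at Phactr1, beside 4.71% of all deposited regions. The genes were named for their number of selected regions. For Zeb2 and Igfbp7, all selected regions came from 5-HT replicate 1.

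Regions of 5-HT replicate 1 had 3028 genes as nearest and those of 5-HT replicate 2 had 1406, with 615 in common, which is 20.3% of the first list and 43.7% of the other. Of all 18337 genes nearest to any deposited region, 7.67% were nearest to a region of 5-HT replicate 2 and 16.5% to a region of 5-HT replicate 1. Whether the overlap follows the number of deposited regions at each gene was not tested. Within 20 kb, 395 of all 22380 protein-coding genes held regions of both libraries. They are 14.9% of the 2650 genes with a region of 5-HT replicate 1 and 30.5% of the 1293 with one of 5-HT replicate 2. They were long, with a median length of 149 kb against 15.4 kb for all protein-coding genes. The most regions were found at the 4435 kb locus annotated as Gm20388 (20) and at Fgfr2, annotated over 3009 kb (9), followed by Nfib with 8 and by 8 genes with 7, which are Arfip1, Lrp1b, Meis2, Nckap5, Nr2f1, Nrxn3, Pde4b and Sgcd. Of these, Nr2f1 is short, at 10.8 kb.

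Sequence was described by short words, looked up on either strand of the 200 bp at the middle of each region. The word TGATTNAT, bound by HOX proteins together with PBX, occurred in 291 of the 4577 regions of 5-HT replicate 1 (6.36%, 95% Wilson interval 5.69 to 7.10%). In the regions of 5-HT replicate 2 it occurred in 45 of 1631 (2.76%, 2.07 to 3.67%), in regions of single DA libraries in 2.38%, 2.99% and 2.86%, and in all deposited regions in 2.88%. Only 5-HT replicate 1 stood apart among these libraries. Within its regions, the word was found in 4.50% of the 1446 with the lowest score and in 8.91% of the 1145 with the highest 25% of scores. It was also frequent just outside the rule, in 5.26% of the 2395 regions shared by 5-HT replicate 1 and 1 DA library, and occurred in 2.64% of all peaks of 5-HT replicate 1, whose GC content is higher.

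TAATTA, the core of many homeodomain sites, was also highest in 5-HT replicate 1, with 10.7% in 5-HT replicate 1 (9.88 to 11.7%), 4.90% in 5-HT replicate 2 (3.96 to 6.06%) and 5.03%, 6.99% and 5.14% in the DA libraries. It occurred in 6.37% of all deposited regions and in 8.80% of the regions found in all 3 DA libraries and no 5-HT library. The word AGATAA, bound by GATA factors, was found in 12.3% and 9.69% of the regions of the 5-HT libraries and in 10.2%, 9.69% and 10.2% of those of the DA libraries. CGGAAG is an ETS word that fits factors such as Fev. It did not set the 5-HT regions apart from the DA regions, with 3.36% and 2.94% against 2.90%, 3.74% and 2.73%. These shares all lay below the 5.22% of all deposited regions. Over all peaks of 5-HT replicates 1 and 2, the word occurred in 9.46% and 12.0%. TGANTCA, an AP-1 word, occurred in 7.54% and 7.05% of the 5-HT regions and 7.15%, 6.84% and 7.22% of the DA regions, and AGGGGGC, part of the CTCF site, in 3.15% and 4.35% against 3.82%, 4.66% and 2.47%. Over all deposited regions, the shares were 9.21% for AGATAA, 6.14% for TGANTCA and 4.96% for AGGGGGC.

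Both 5-HT libraries lay on the same side of all DA libraries for 3 words. TTGGCA, the half-site of nuclear factor I and a word picked from these data earlier, was found in 20.6% and 18.5% of the regions of the 5-HT libraries and in 11.6%, 13.9% and 12.9% of those of the DA libraries. The bHLH words were lower, with 18.5% and 16.4% against 22.0%, 22.1% and 20.3% for CAGATG, and 15.6% and 15.4% against 17.7%, 20.7% and 16.1% for CAGCTG. Over all deposited regions the shares were 13.4% for TTGGCA, 19.5% for CAGATG and 18.9% for CAGCTG. Over all peaks of 5-HT replicates 1 and 2 they were 12.9% and 11.6% for TTGGCA, 14.6% and 12.5% for CAGATG, and for CAGCTG 16.5% and 3664 of 22879 peaks, close to the selected regions. CAGATG was more frequent in the selected regions than in their own libraries. The 513 regions shared by the 5-HT libraries had 29.4% for TTGGCA, 16.8% for CAGATG and 22.0% for CAGCTG. Just outside the rule, regions of 1 DA library with 5-HT replicate 1 had 18.5%, 18.4% and 18.7%, and those with 5-HT replicate 2 had 22.5%, 17.8% and 22.3%. The low share of CAGCTG was thus not seen in these related sets. Among all 2080 words of 6 bases, 10.5% had a higher share in both 5-HT libraries than in the 3 DA libraries and 12.4% a lower share, so that such an order is common. By the difference of the group means, TTGGCA ranked 3 and CAGATG 2079 of 2080. The rank of TTGGCA is no separate evidence, since the word was picked from these data. A word is not a bound site, and regions of a library are not replicates, so no test was made.

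A few sequences are shown for the loci named above, read from the plus strand of mm9 with annotated exons left out. Capitals mark the words counted, on either strand. The region upstream of Fev, chr1:74932372-74932507, holds a GATA word, which reads TTATCT on this strand:

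Fev upstream: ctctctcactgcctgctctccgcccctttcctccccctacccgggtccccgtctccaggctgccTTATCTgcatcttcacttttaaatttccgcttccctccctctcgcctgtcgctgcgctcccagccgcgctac

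The intergenic region upstream of Gata3, chr2:9815601-9815702, holds the bHLH word CAGATG on this strand:

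Gata3 upstream: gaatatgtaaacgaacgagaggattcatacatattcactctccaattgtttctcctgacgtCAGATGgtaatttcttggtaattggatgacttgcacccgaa

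The bases up to the TSS of Slc6a5, chr7:57165337-57165515, hold the homeodomain, AP-1 and CTCF words, the last on the minus strand. The centre of a region in an intron of Hoxa3, chr6:52125379-52125578, was chosen after its values were seen because it holds TGATTNAT, here on the minus strand, as 3 of the 5 regions at Hoxa2 and Hoxa3 did:

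Slc6a5 promoter: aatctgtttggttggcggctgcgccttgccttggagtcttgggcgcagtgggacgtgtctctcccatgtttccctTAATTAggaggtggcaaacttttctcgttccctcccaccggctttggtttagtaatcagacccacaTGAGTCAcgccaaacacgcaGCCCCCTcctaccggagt
Hoxa3 intron: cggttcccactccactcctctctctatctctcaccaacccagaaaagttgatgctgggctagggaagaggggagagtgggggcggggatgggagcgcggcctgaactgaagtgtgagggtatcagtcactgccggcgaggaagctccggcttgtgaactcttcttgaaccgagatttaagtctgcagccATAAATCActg

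The region near Tnnt2, chr1:137749072-137749215, is the highest-scoring intergenic region of 5-HT replicate 2 and holds the AP-1 and CTCF words:

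Tnnt2 intergenic: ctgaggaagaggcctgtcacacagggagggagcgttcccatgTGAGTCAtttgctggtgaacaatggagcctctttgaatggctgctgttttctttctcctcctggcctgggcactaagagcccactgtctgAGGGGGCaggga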

How the data were processed

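ATAC-seq peaks of 3 DA and 2 5-HT libraries of E14.5 embryos were analysed. Upstream, the authors used Trimmomatic for trimming, Bowtie2 for alignment to mm9, Picard for duplicates, MACS2 for the peaks of a library, and BEDOPS to join peaks less than 100 bp apart. Versions and the calling threshold are not given in the sources used here. The score deposited by the authors is given for the same 131942 regions in all libraries, and 0 means no peak. Its scale is not named, and columns 7 to 9 hold -1 throughout, so the score was used within a library only. A misspelled chromosome in 1 line was taken to be chromosome Y.

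Coordinates are 1-based. The centre of a region decided its class, with promoters before exons, introns and intergenic loci, with the GENCODE annotation of mm9 (release M1). Distances to genes were taken from the centre of the region, and distances between regions from their ends. For the tests, each library gave 1 value over the regions found in it alone, and 5-HT and DA means were compared by two-sided exact permutation tests, with Benjamini-Hochberg adjustment over 3 tests. Presence, number and score define the regions and were not tested. The members and the lists of genes and words were chosen with earlier results of these data known.

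Named were the 5 regions of each 5-HT library with the highest score and the 3 in coding promoters, each region within 20 kb of a serotonergic gene, all regions near Fev, up to 4 examples by score for other lists within 100 kb, and the 10 genes with the most regions, with ties. Some items that these rules name are not shown. Computation used samtools 1.23.1 and Python 3.11.15 with pysam 0.24.0, statsmodels 0.14.6, pandas 2.3.3, SciPy 1.17.1 and NumPy 2.4.6, and the functions were tested on simulated data. The alternatives tried concerned merging, the peak threshold, the number of peaks, the overlap, each library, the replicate number, the promoter, the distance and the window. RNA-seq was not analysed here.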

Additional observations from a re-analysis of the deposited data

How the results depend on the processing

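The numbers of regions changed with the peaks that counted. With peaks at or above the 25th percentile of their library, 3495 regions met the rule, 2589 in 5-HT replicate 1 and 906 in 5-HT replicate 2. When each library was cut to its 22879 peaks of highest score, 8757 regions met the rule on the peaks kept. Of these, 3436 were in 5-HT replicate 1 and 5321 in 5-HT replicate 2, so that replicate 2 held more. The cut kept all peaks of 5-HT replicate 2, and peaks below it counted as absent. Regions counted after it can thus have a lower-scoring peak in another library and differ from the selected regions. The differences given below for the same number of peaks are of such regions. Leaving out each library gave 2144 to 8124 regions in all, 4650 to 6166 for 5-HT replicate 1 and 1647 to 2144 for 5-HT replicate 2. The lowest total came without 5-HT replicate 1. Merging and the 1 kb distance kept the numbers within 1.5 times. For the tests, differences are in percentage points, 5-HT minus DA. The promoter difference was -0.000446 with the 25th percentile, 3.99 at the same number of peaks, where the groups separated, and -0.108 to 0.988 when each library was left out, below 0 without DA replicate 3. The difference in serotonergic and hindbrain loci was 0.462 at the same number of peaks, where the groups also separated, and -0.0831 to 0.576 when each library was left out, below 0 without 5-HT replicate 1. The GC difference was 3.60 at the same number of peaks, where the groups separated as well, and -0.480 to 0.898 when each library was left out, above 0 without DA replicate 1, DA replicate 2 or 5-HT replicate 1. The other alternatives kept the direction but not always the size. The promoter difference was 0.259 after merging and 0.124 with no other peak within 1 kb, where the difference in loci was 0.156 and that in GC content -0.415. The causes were not tested. No alternative gave a p below 0.1 with all 5 libraries, which is the smallest possible and says nothing about stability. The replicate numbers do not pair the samples, as each library came from its own sort. With the replicate block over numbers 1 and 2, the differences were 0.117 for promoters, 0.177 for serotonergic and hindbrain loci and -0.724 for GC content. Peak lists carry no read counts, so a score of 0 cannot be told apart from a lack of depth, and regions of a single library were seen in no replicate.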
